A study of Mus musculus with 2 samples.

Results

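The MAP kinase cascade kinases are the genes whose symbol is Mapk, Map2k, Map3k or Map4k followed by a number. They are picked by symbol, and 37 of 17817 genes in the deposited table carried such a name: 12 MAP kinases, 7 MAP2 kinases, 13 MAP3 kinases and 5 MAP4 kinases. Their transcripts were measured by RNA sequencing in mouse embryonic stem cells, in 1 wild-type library and 1 library of cells labelled as knockout for Setd2, whose product places the trimethyl mark on lysine 36 of histone H3 within active genes. Both lines were of mixed 129SV/C57BL/6 strain at passages 10 to 12, grew without a specific treatment on feeder cells, and were passaged once on gelatin to remove these, 2 days before collection. The sources used here do not give how Setd2 was disrupted or whether each line was 1 clone. Neither genotype had a replicate, so every difference below describes these 2 libraries and none was tested across cultures.

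A MAP kinase cascade passes a signal from one kinase to the next. A MAP4 kinase or a small GTPase activates a MAP3 kinase, the MAP3 kinase phosphorylates a MAP2 kinase, and the MAP2 kinase phosphorylates a MAP kinase on a threonine and a tyrosine of its activation loop. The ERK branch answers mainly to growth factors, and in embryonic stem cells FGF4 acting through ERK is known to move cells out of the pluripotent state. The JNK and p38 branches answer mainly to stress and cytokines. These enzymes are controlled largely by phosphorylation, which transcript levels do not measure.

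The activation segment shows what separates the branches and how far close paralogs differ in sequence. The segments below are coding DNA read 5′ to 3′ on the sense strand from GENCODE transcripts of the NCBIM37 assembly (mm9), for the MAP kinases and MAP2 kinases on which the results below turn. In the MAP kinases the capitals mark the codons of the threonine, the residue between and the tyrosine that are phosphorylated as a pair: Thr-Glu-Tyr in the ERK gene, Thr-Pro-Tyr in the JNK genes and Thr-Gly-Tyr in the p38 genes.
Mapk3: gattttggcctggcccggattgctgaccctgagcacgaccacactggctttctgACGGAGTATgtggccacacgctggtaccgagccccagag
Mapk9: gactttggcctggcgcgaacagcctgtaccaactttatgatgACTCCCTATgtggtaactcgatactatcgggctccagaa
Mapk10: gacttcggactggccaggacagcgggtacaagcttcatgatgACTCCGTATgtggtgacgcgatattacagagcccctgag
Mapk13: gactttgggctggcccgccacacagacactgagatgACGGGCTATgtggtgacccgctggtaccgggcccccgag
Mapk14: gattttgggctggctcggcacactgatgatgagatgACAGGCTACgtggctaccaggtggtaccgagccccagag
These lie at chr7:133906918-133907010 (Mapk3, exon 4, plus strand), chr11:49686290-49686370 (Mapk9, exon 6, plus), chr5:103418670-103418750 (Mapk10, exon 7, minus), chr17:28913253-28913327 (Mapk13, exon 7, plus) and chr17:28865308-28865382 (Mapk14, exon 7, plus). Over them Mapk9 and Mapk10 differed at 20 of 81 bases, and Mapk13 and Mapk14 at 15 of 75.

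In the MAP2 kinases the capitals mark the codons from the first to the second of the serine or threonine residues that a MAP3 kinase phosphorylates. They are shown because Map2k7, Map2k2 and Map2k3 were among the members farthest apart between the libraries, and because this tier holds the 2 members that share the longest run of sequence.
Map2k1: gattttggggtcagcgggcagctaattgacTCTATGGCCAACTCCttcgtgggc
Map2k2: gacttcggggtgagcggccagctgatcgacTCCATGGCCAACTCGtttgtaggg
Map2k3: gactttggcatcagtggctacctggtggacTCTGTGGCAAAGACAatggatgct
Map2k4: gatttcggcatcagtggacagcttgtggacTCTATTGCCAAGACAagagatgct
Map2k7: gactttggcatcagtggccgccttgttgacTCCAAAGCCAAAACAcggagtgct
Their places are chr9:64041527-64041580 (Map2k1, exon 6, minus), chr10:80582055-80582108 (Map2k2, exon 6, plus), chr11:60760199-60760252 (Map2k3, exon 8, plus), chr11:65520507-65520560 (Map2k4, exon 7, minus) and chr8:4244532-4244585 (Map2k7, exon 8, plus). Map2k1 and Map2k2 differed at 11 of 54 bases and Map2k4 and Map2k7 at 14 of 54. The longest exact run shared by any 2 of the 37 members, over 666 pairs of transcripts, was the following 56 bases of Map2k1 and Map2k2, shown because sequencing reads here were 76 bases long.
Map2k1 and Map2k2: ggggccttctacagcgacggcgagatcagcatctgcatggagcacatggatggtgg
It crosses from exon 3 to exon 4 in both genes, at chr9:64052988-64060438 on the minus strand and chr10:80577870-80580904 on the plus strand. No 2 members shared an exact run of 76 bases, a count of 0, and with 2 mismatches allowed only this pair did, at 4 of the 2361 read starts of the Map2k1 transcript. Of the 37 members, 36 had 0 of 20 sampled exon windows that also matched elsewhere in the genome, and Mapk6 had 5%.

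The table's values were scaled to a common total of 1000000 read equivalents per library (CPM), where 1 read equivalent is 76 sequenced bases over a gene. Gene totals were 56129838 read equivalents for wild type and 52041677 for the knockout, so 1 CPM was 56.1 and 52.0 of them. Setd2 itself stood at 452 CPM in wild-type cells and at 174 CPM in the knockout, or 38.5% (37.6 to 39.4%) of the former. Embryonic stem cell markers were present in both: the 11 in the table summed to 3672 and 3248 CPM. Their median log2 fold was -0.30, and 9 of the 11 were below 0, against 43.6% of all genes compared. The 2 above 0 were Nanog, at 221 and 310 CPM, and Dppa5a, at 458 and 584 CPM. Pou5f1 was at 558 and 544 CPM, while Zfp42 (283 and 68.1 CPM) and Klf2 (58.0 and 17.1 CPM), both on chromosome 8, were at least 2-fold lower. The lines also differed in Y-linked transcripts, whose 5 genes compared had a median log2 fold of 6.20. The 18 fibroblast markers, standing for feeder cells, summed to 2946 and 3206 CPM, of which Fn1 alone made 2666 and 2957, and the median log2 fold of the 14 above the floor described below was -0.21. Lum was listed at 0 in the knockout library, and Dcn, Fap and Twist2 stayed at or under 1 CPM in both, whereas Vim (95.3 and 81.7 CPM), Col1a1 (45.03 and 31.3 CPM) and Fbn1 (25.5 and 24.4 CPM) were well above it. Of the 14, Prrx1 was at least 2-fold lower, and Tagln and Pdgfrb had the highest folds, both 0.63. The 12 primitive endoderm markers summed to 761 and 489 CPM. None of the 12 was at 0, and Sox17 and Foxa2 were under 1 CPM in both. Of 10 above the floor, 6 were at least 2-fold lower, against 2.11% of all genes compared. Among these 6, Gata6 (6.00 and 0.953 CPM) and Sox7 (2.81 and 0.788 CPM) were under 1 CPM in knockout cells. Their wild-type levels alone made them comparable, so nothing is read from these 2. The part of either cell type, or of the Y-linked difference, in the values of the kinases was not tested, and in bulk RNA fewer cells of a type and less RNA per cell cannot be told apart.

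No member stood 2-fold apart once it passed the floor. The fold used throughout is log2((knockout + 0.5)/(wild type + 0.5)) on CPM, which understates folds of low genes, and a gene was compared where its 2 levels averaged 1 CPM or more. Of the 36 members that passed, 0 were higher in knockout cells by 2-fold or more, against 1.76% of all 13523 genes compared, and 0 were at least 2-fold lower, against 2.11%. At a 1.5-fold threshold 1 member was higher (Map3k8) and 1 lower (Map2k7), against 7.42% and 6.77% of all genes, but Map3k8 passed the floor through its higher library alone, so nothing is read from its count. The members' median log2 fold was 0.02 and that of all genes 0.05. Their median absolute log2 fold was 0.18 against 0.25 for all genes, which were not matched to the members in level. Of the 36, 32 lay within 0.5 of 0, as did 10891 of all 13523 genes compared. In a group of 36, a single gene past the 2-fold threshold would already be a larger share than the background of its own direction. It would be a smaller share than the 3.87% of all genes past the threshold in both directions together.

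Depth made small differences readable within this pair. Each ratio of CPM below carries an exact 95% interval from the read equivalents, which covers counting error only and not the spread between cultures, and without molecular identifiers several reads can come from 1 molecule. That interval lay wholly above a ratio of 1 for 13 of the 36 members and wholly below it for 14, against 41.8% and 31.5% of all genes compared, so an interval away from 1 was common among all genes.

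**Figure D1:**
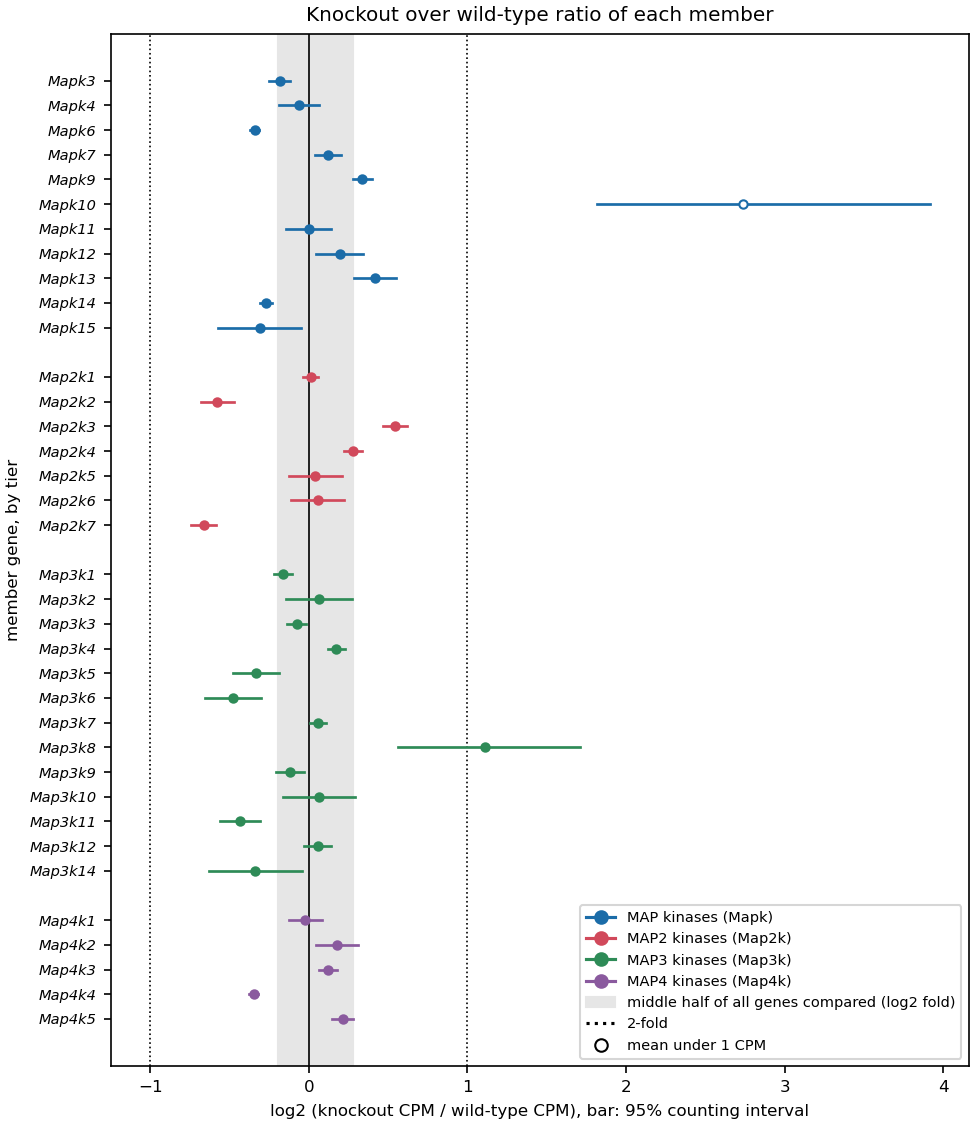
Ratio of knockout to wild-type CPM for 36 of the 37 members on a log2 axis, grouped and coloured by tier, with bars for the 95% counting interval. The grey band is the interquartile range of the log2 folds of all genes compared, from -0.20 to 0.28, and dotted lines mark 2-fold; Map2k2 and Map2k7 lie farthest to the left, while Mapk10 and Map3k8, the members with the fewest reads, lie farthest to the right with the widest bars.

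Mapk3, which encodes the growth-factor-responsive kinase ERK1, was slightly lower in the knockout library. This gene (number 26417, chromosome 7, 133903140 to 133909330 in mm9) was at 70.3 and 61.8 CPM in wild-type and knockout cells, so the knockout held 88.0% of it (84.0 to 92.2%). Divided by the length of the exons in the table's span, Mapk3 stood at 32.9 and 29.0 CPM per kilobase.

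The MAP kinases of other ERK-like kinds differed in both directions. Mapk6, which encodes the atypical kinase ERK3, was at 408 and 322 CPM, a ratio of 0.789 (0.774 to 0.805). Its close relative Mapk4, which encodes ERK4, was at 19.2 and 18.4 CPM, with an interval from 0.878 to 1.05 that held 1. Both lack the Thr-X-Tyr pair of the other MAP kinases, and the search for that pattern found none in Mapk6 (Mapk4 was not searched). Mapk7, which encodes ERK5, was at 43.0 and 46.8 CPM (ratio 1.09, 1.03 to 1.15), and the low Mapk15 at 5.10 and 4.12 CPM (0.808, 0.673 to 0.967).

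In the JNK branch Mapk9, which encodes JNK2, was at 72.8 and 92.0 CPM, a ratio of 1.26 (1.21 to 1.32). Mapk10, which encodes JNK3 and is known mainly from neurons (chromosome 5, 103336967 to 103640353), was at 0.185 CPM in wild-type and 1.24 CPM in knockout cells. These levels rest on 10.4 and 64.3 read equivalents, the ratio of 6.67 has an interval from 3.52 to 15.1, and the mean lay under the floor, so Mapk10 was the 1 member not compared. On the per-length scale Mapk10 made 0.155% and 0.811% of the sum of Mapk9 and Mapk10, so nearly all of that sum was Mapk9 in both libraries. No gene in the deposited table carried the symbol Mapk8, the third JNK gene, so it was not analysed here.

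Among the 4 p38 genes the most abundant was lower in the knockout library and a neighbour of it was higher. Mapk14, which encodes p38 alpha (gene number 26416), was at 226 and 187 CPM, a ratio of 0.829 (0.807 to 0.851). Mapk13, which encodes p38 delta (gene number 26415), was at 15.4 and 20.6 CPM, a ratio of 1.34 (1.22 to 1.46). The genes lie 20912 bases apart on chromosome 17, on the same strand, at 28828287 to 28885349 and 28906262 to 28915649, and the genes within 1 Mb of each had a median log2 fold of -0.01. Mapk12 was at 12.8 and 14.7 CPM (1.14, 1.03 to 1.27) and Mapk11 at 14.8 CPM in both (1.00, 0.905 to 1.10), and these lie 1780 bases apart on chromosome 15. Per length, Mapk14 held 69.1% of the p38 sum in the wild-type and 60.9% in the knockout library, and Mapk13 13.7% and 19.5%. The sum over the p38 genes was 74.9 and 70.5 CPM per kilobase. Without division by length the shift for Mapk14 was -5.09 points, against -8.21 with it.

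Among the 36 members compared, the MAP2 kinase tier held the lowest fold and, after Map3k8, the highest. Map2k7, which phosphorylates JNK (gene number 26400, chromosome 8, 4238740 to 4247896), was at 65.0 CPM in wild-type and 41.1 CPM in knockout cells, a ratio of 0.632 (0.598 to 0.666) and a log2 fold of -0.66. It is the 1 member on chromosome 8, whose genes compared had a median log2 fold of -0.35, and the 28 genes within 1 Mb of it had a median of -0.35 too. Map2k4, which phosphorylates JNK and p38 (gene number 26398, chromosome 11, 65501746 to 65601799), was at 91.8 and 111 CPM, a ratio of 1.21 (1.17 to 1.26) and a log2 fold of 0.28. The 4 genes within 1 Mb of Map2k4 had a median of 0.41. The pair that feeds the JNK branch therefore differed in opposite directions, and Map2k4 held 53.7% of their summed per-length level in the wild-type and 69.0% in the knockout library. Their sum was 36.7 and 34.6 CPM per kilobase. This was the largest shift in share, 15.3 points, among the subfamilies with at least 2 genes in the table.

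The MEK genes upstream of ERK were unequal in level. Map2k1, which encodes MEK1, was at 145 and 146 CPM with an interval from 0.976 to 1.04. Map2k2, which encodes MEK2 (gene number 26396, chromosome 10, 80568692 to 80587442), was at 36.04 and 24.1 CPM, a ratio of 0.670 (0.624 to 0.719) and a log2 fold of -0.57. The 71 genes within 1 Mb of Map2k2 had a median of -0.15. Map2k1 thus held 81.7% of the pair's summed per-length level in the wild-type and 87.0% in the knockout library. Of the 2330 read starts of the Map2k2 transcript, 4 matched Map2k1 within 2 mismatches.

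Map2k3, which phosphorylates p38 (gene number 26397, chromosome 11, 60745559 to 60766305), was at 43.7 and 63.7 CPM, a ratio of 1.46 (1.38 to 1.54) and a log2 fold of 0.54. The 33 genes within 1 Mb of it had a median of 0.21. Its partner for p38, Map2k6, was at 10.9 and 11.3 CPM (1.04, 0.925 to 1.16), and Map2k5, which phosphorylates ERK5, at 10.9 and 11.2 CPM (1.03, 0.917 to 1.15). Both of those intervals held 1. Summed, Map2k3 and Map2k6 stood at 17.6 and 23.9 CPM per kilobase, the latter 136% of the former.

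**Figure D2:**
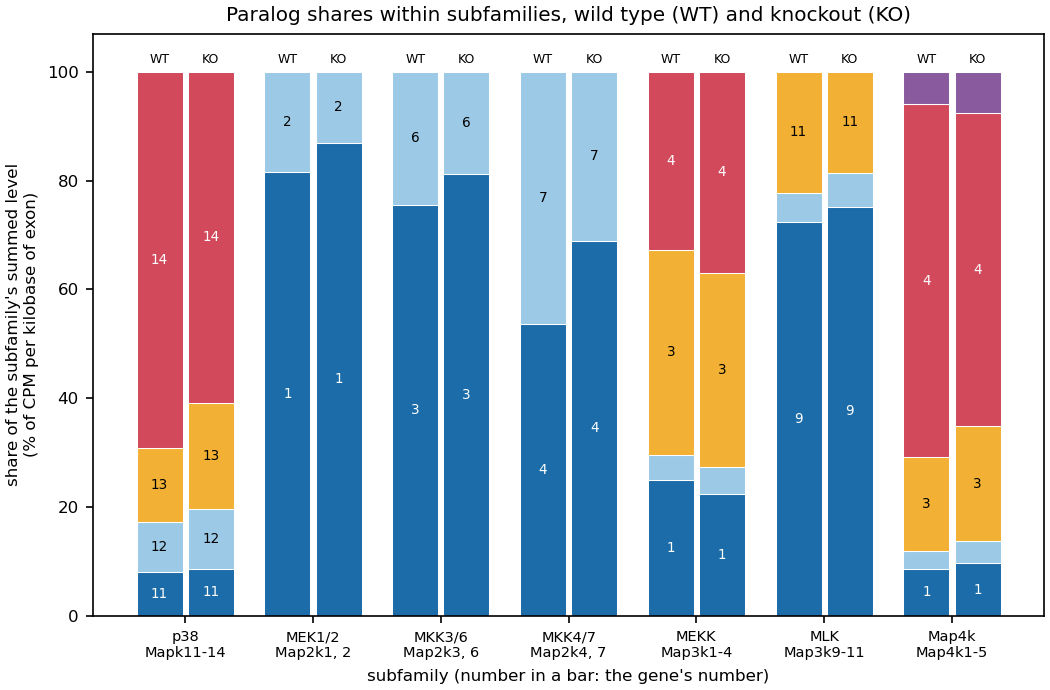
Share of each paralog in the summed per-length level (CPM per kilobase of exon) of 7 subfamilies, with the wild-type library as the left bar and the knockout library as the right bar of each pair. Within Map2k4 and Map2k7 the share of Map2k4 goes from 53.7% to 69.0%, and within the p38 genes that of Mapk14 from 69.1% to 60.9%.

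MAP3 kinases, which receive the upstream signal, were mostly close in the 2 libraries. Map3k7, which encodes TAK1 and acts downstream of TGF-beta and interleukin receptors, was at 120 and 125 CPM, a ratio of 1.04 (1.01 to 1.08). The MEKK genes Map3k1, Map3k3 and Map3k4 were at 108, 82.2 and 102 CPM in the wild-type and 96.6, 77.9 and 115 CPM in the knockout library, with ratios of 0.893 (0.860 to 0.928), 0.948 (0.909 to 0.989) and 1.13 (1.09 to 1.17). The fourth MEKK gene, Map3k2, was at 7.07 and 7.40 CPM. Their summed per-length level was 58.6 and 58.5 CPM per kilobase, nearly level between the libraries although 2 of the genes were lower and 1 higher beyond counting error.

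The ASK genes and 2 of the mixed-lineage kinase genes were lower in the knockout library beyond counting error. Map3k5, which encodes the oxidative stress kinase ASK1, was at 16.1 and 12.8 CPM (0.793, 0.717 to 0.878), and Map3k6, its partner ASK2, at 11.7 and 8.35 CPM (0.717, 0.634 to 0.811). Of the mixed-lineage kinases, which act mainly on JNK, Map3k11 was at 22.7 and 16.8 CPM (0.739, 0.677 to 0.806) and Map3k9 at 41.1 and 37.7 CPM (0.919, 0.865 to 0.977), while Map3k10, at 5.87 and 6.13 CPM, had an interval that held 1. Map3k12, the neuronal injury kinase DLK, was at 42.0 and 43.6 CPM (1.04, 0.980 to 1.10). Map3k14, the NIK kinase of noncanonical NF-kappaB signalling, was at 4.16 and 3.29 CPM (0.792, 0.646 to 0.968).

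Map3k8 had the highest fold among the members compared. It encodes TPL2, which activates MEK1 in inflammatory signalling (gene number 26410, chromosome 18, 4331325 to 4352951). Its levels were 0.719 CPM in wild-type and 1.55 CPM in knockout cells, from 40.4 and 80.7 read equivalents. The ratio was 2.16 (1.48 to 3.27) and the log2 fold with the pseudocount 0.75, so whether it counts as 2-fold apart depends on the pseudocount. Only its level in knockout cells lifted Map3k8 over the floor.

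The MAP4 kinases were led by Map4k4, the member with the highest per-length level in the wild-type library. Map4k4 (gene number 26921, chromosome 1, 39957758 to 40083155) was at 474 and 372 CPM, a ratio of 0.786 (0.771 to 0.800). Map4k3, a kinase linked to amino acid sensing, was at 87.3 and 95.1 CPM (1.09, 1.05 to 1.13), Map4k5 at 60.1 and 69.7 CPM (1.16, 1.11 to 1.21) and Map4k2 at 17.0 and 19.2 CPM (1.13, 1.03 to 1.24). Map4k1, known mainly from blood cells, was at 28.0 and 27.5 CPM, with an interval from 0.916 to 1.06. The share of Map4k4 in the tier's summed per-length level was 65.1% and 57.6%.

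**Figure D3:**
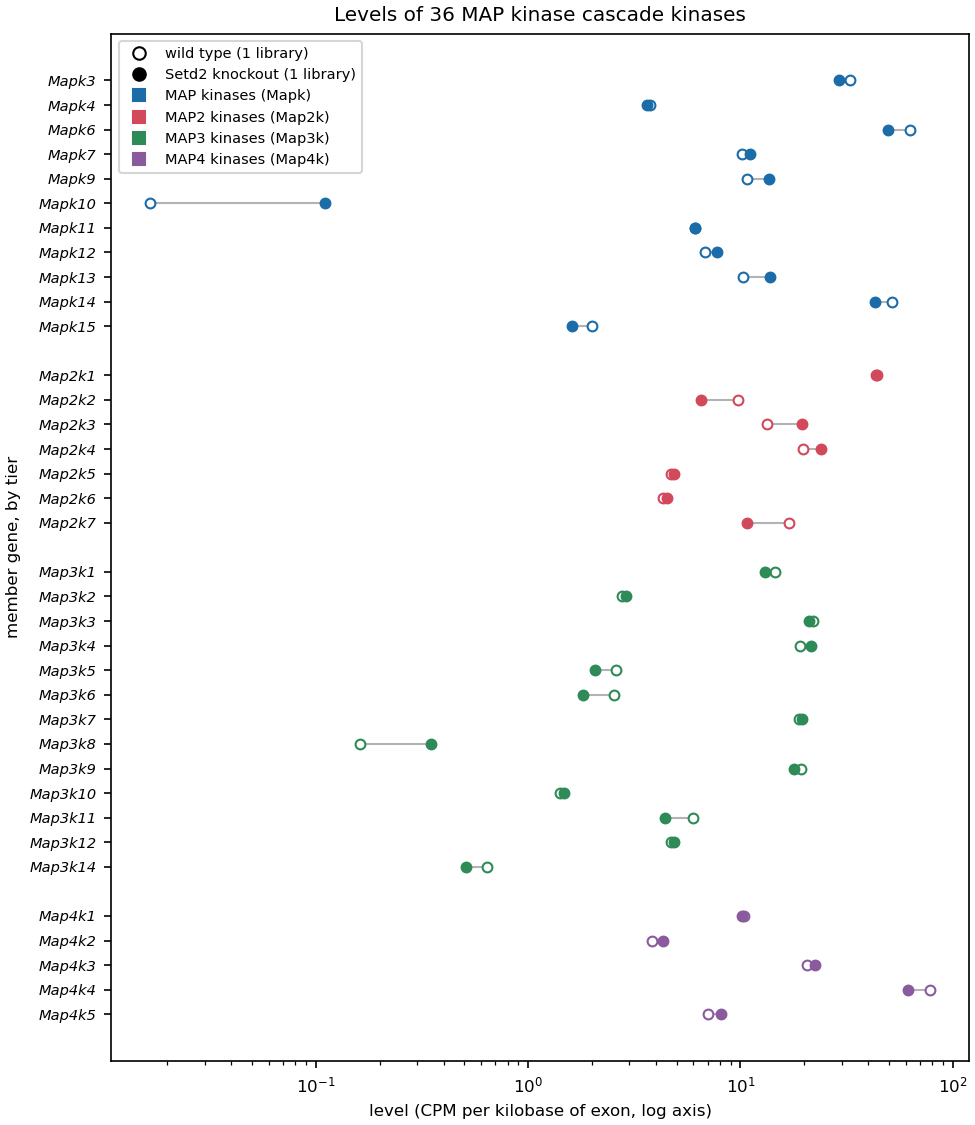
Level of 36 of the 37 members in CPM per kilobase of exon on a log axis, by tier, with open circles for the wild-type and filled circles for the knockout library. Levels run from 0.0166 (Mapk10) to 77.9 (Map4k4) in the wild-type library, and for most members the 2 circles nearly touch compared with the distance between genes.

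Across the cascade the levels of the genes differed far more than the libraries did. In CPM per kilobase Map4k4 (77.9), Mapk6 (62.6), Mapk14 (51.8), Map2k1 (43.5) and Mapk3 (32.9) were among the 6 highest members of the wild-type library, and they were among the 6 highest of the knockout library too, at 61.2, 49.4, 42.9, 43.8 and 29.0. The lowest 3 in both were Mapk10, Map3k8 and Map3k14. In the wild-type library every tier held members above and below the median of all genes compared. Per-length levels there ran from 0.0166 to 62.6 among MAP kinases and from 4.32 to 43.5 among MAP2 kinases. They ran from 0.162 to 22.1 among MAP3 kinases and from 3.83 to 77.9 among MAP4 kinases. The median over the 37 members was 10.2 CPM per kilobase in each library, against 8.03 and 8.06 over all genes compared. For Map3k9 the table's span held 2119 bases of exon, fewer than the 3234 coding bases of its annotated transcript, so its per-length level rests on part of the gene. The span of Map3k2 held 2551 bases of exon, against 10791 in its annotated transcript, of which 1860 are coding.

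The sign of these differences varied with base composition. Over all 12788 genes compared that had an exon model, the log2 fold was lower at higher G + C content of the exons (Spearman rho -0.34), from a median of 0.23 in genes under 40% to -0.29 in genes of at least 60%. Over the 36 members rho was -0.42; genes are not independent replicates and all points share the same 2 libraries, so this is a description. All 7 members under 45% G + C (among them Mapk9, Map2k4, Map3k7, Map3k8, Map4k3 and Map4k5) had a fold above 0, as did 76.5% of all genes in that range, and 10 of the 15 members of at least 55% had a fold below 0, as did 65.1% of all genes there. Of the 7, Map3k7 changed sign with 1 of 3 rescalings. Map3k8 was compared only on the strength of its knockout level, which favours a fold above 0, so its sign is not read. Map3k8 is also among the 36 members behind the rho of -0.42. Bins of G + C content were 5 points wide from 40 to 60%, with open bins below and above. Relative to the median of genes in the same bin, Map2k7 was at -0.55, Map2k3 at 0.53, Mapk13 at 0.51, Map2k2 at -0.46 and Mapk6 at -0.44. By the same measure Mapk3 was at -0.08 and Map2k4 at 0.10. Map3k11 went from -0.43 to -0.14 by this subtraction, Mapk9 from 0.33 to 0.16, Map4k5 from 0.21 to 0.04 and Map3k14 from -0.30 to -0.19, whereas Map3k1 went from -0.16 to -0.26 and Mapk7 from 0.12 to 0.23. The part of base composition in single differences was not tested beyond this subtraction.

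**Figure D4:**
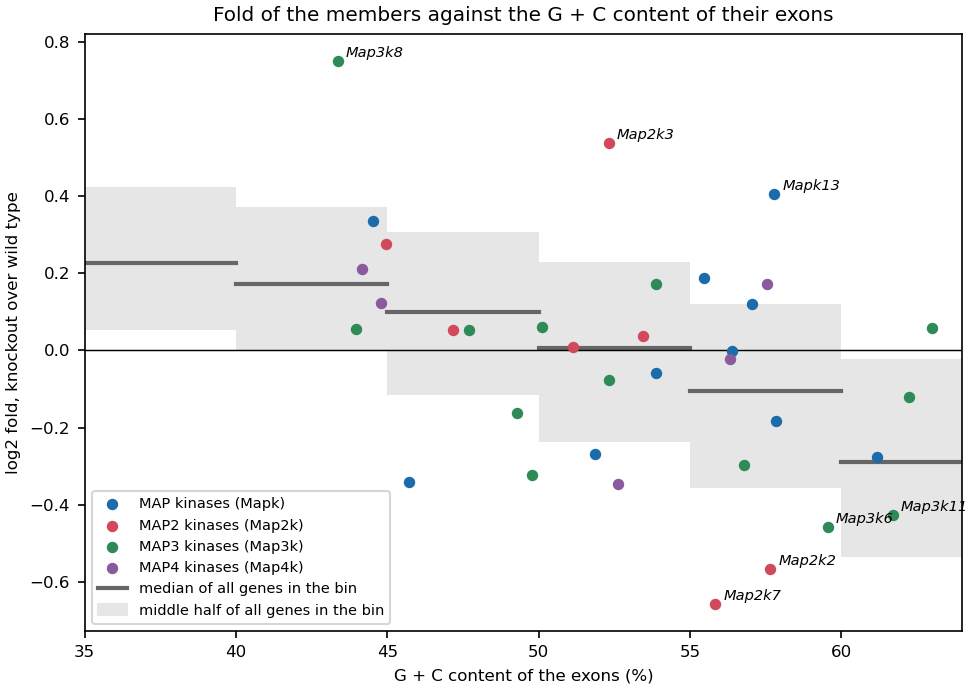
Log2 fold of 35 of the 36 members compared against the G + C content of their exons, with the median (dark line) and interquartile range (grey) of all genes in each bin. Bins are 5 points wide from 40 to 60% and open at either end. The bin medians step down from 0.23 to -0.29, and Map2k3, Mapk13 and Map3k8 stand above, and Map2k2, Map2k7 and Map3k6 below, the interquartile range of their bins, as do several unlabelled members.

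Genes around the cascade were read from 6 lists, whose counts stand against 1.76% of all genes at least 2-fold higher and 2.11% at least 2-fold lower. The members' nearest partners, other kinases of the MAP3 and MAP4 level such as the RAF, KSR and TAO genes, had a median log2 fold of 0.04 over 16 compared, with 0 at least 2-fold apart in either direction. The widest were the ERK scaffold gene Ksr1, at 39.7 and 23.1 CPM (58.2%, 54.2 to 62.5%), Tnik, at 3.92 and 6.48 CPM, and Taok3, at 16.4 and 24.1 CPM. Kinases that MAP kinases activate had a median of -0.00 over 11, again with 0 past 2-fold, and the widest folds among them were -0.53 for Rps6ka4, 0.25 for Rps6ka5 and -0.19 for Rps6ka2. Of the windows sampled in Rps6ka2, 20% also matched elsewhere in the genome.

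Of 21 scaffolds and activating partners, 2 were at least 2-fold lower and 0 higher, with a median of -0.03. Gadd45g, a stress-induced partner of Map3k4, was 1 of these, at 3.05 and 1.10 CPM, a ratio of 0.359 (0.262 to 0.488). Mapksp1, a scaffold of MEK1 and ERK on late endosomes, was at 6.25 and 11.2 CPM, a ratio of 1.79 (1.57 to 2.05). Mapksp1 had no exon model under that symbol, so its windows and G + C content were not checked. Of 18 nuclear substrates, Jund was at least 2-fold lower (40.3 and 17.8 CPM; it lies on chromosome 8) and Mef2c at least 2-fold higher (0.890 and 2.39 CPM, over the floor only through the knockout library), Myc had a log2 fold of -0.76, and the median was 0.01.

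The dual-specificity phosphatases switch MAP kinases off, and immediate early genes are among the transcripts MAP kinases induce. Of 9 dual-specificity phosphatase genes compared, 2 were at least 2-fold lower (2.11% of all genes) and 0 higher, with a median of -0.19. Dusp4, on chromosome 8, was at 54.3 and 20.4 CPM and Dusp1 at 115 and 47.8 CPM, while Dusp7 had a log2 fold of -0.62. Above 0 were 3 of the 9: Dusp6, at 233 and 301 CPM (log2 fold 0.37), Dusp8 (0.41) and Dusp10 (0.26). Of 17 immediate early genes, 7 were at least 2-fold lower (2.11% of all genes) and 0 higher, with a median of -0.53. These were Fosb, Fos, Egr2, Egr1, Egr3, Ier2 and Junb, from -3.65 to -1.01, of which Ier2 and Junb lie on chromosome 8. Egr3, at 2.31 CPM in wild-type and 0.408 CPM in knockout cells, owed its comparison to the wild-type level alone. Nothing is therefore read from its place in the count. The difference between that list and the kinases was not tested, since neither library has a replicate, and the lower level of the immediate early genes was already known when the lists were drawn up.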

How the data were processed

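RNA of 1 wild-type and 1 Setd2 knockout line was compared; each column was tied to its sample by name. Software named per the submitters' processing notes was TopHat 1.0.13 and CASAVA 1.6.0, and the build mm9; the sources used here do not give the step each served, the treatment of multiply aligned reads or the use of strand. The authors deposited 1 table of log2 values; per the file headers they are RPKM, but from the values themselves they were read as log2(x + 1) of read equivalents of 76 bases, unscaled by depth or length: 85.9% and 85.7% of x above 0 and under 200 were whole multiples of 1 base in 76, within 0.05 of a base.

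Values were turned back to read equivalents and scaled to 1000000 per library (CPM); of several rows of a symbol the highest was taken. With 1 library per group no p-value was computed. The pseudocount was 0.5 CPM, the floor a mean of 1 CPM and the threshold 2-fold. Ratios carry exact conditional binomial 95% intervals on rounded read equivalents. Exon length and G + C content came from GENCODE models of NCBIM37, the assembly of mm9, within each row's span (94.6% of genes compared had one); 20 windows per gene were placed with minimap2 2.31, and sequences were handled in Python 3.11.15. The procedure was tested on simulated counts that held counting error only and no spread between cultures, so this checks the calculation alone. Of the members 1, and of the scaffold list 1 gene, are not reported here by name; counts and medians include both. Named of each list were the genes past 2-fold and the 3 widest folds. Marker genes named beside the libraries, and list genes beyond these, were named after their values were seen. Members and lists were chosen with earlier results of these data known.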

Additional observations from a re-analysis of the deposited data

How the results depend on the processing

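No paired analysis was possible because neither genotype was sequenced more than once, which also left no library to leave out. The number of members at least 2-fold higher was 1 instead of 0 with a pseudocount of 0.1 CPM (Map3k8), with no floor (Mapk10) and at a 1.5-fold threshold (Map3k8), and the number lower was 1 at a 1.5-fold threshold (Map2k7). The members' median log2 fold ran from -0.035 to 0.039 over 11 alternatives, changing sign with each rescaling, which moved all folds by 0.034 to 0.061. Rescaling turned the sign of Map2k1, Map2k5, Map2k6, Map3k7 and Map3k12, all within 0.06 of 0. Subtracting the median of the G + C bin, chosen after the data were seen, turned Map2k6, Map3k7, Map3k9, Map3k12, Map4k1, Map4k3, Mapk11 and Mapk15. The Setd2 log2 fold was -1.43 with the median log2 ratio set to 0, -1.44 with a trimmed mean of log ratios and -1.55 after that subtraction. In the same order, the median of the RAF, KSR and TAO list was -0.013, -0.020 and 0.0034, and that of the phosphatases -0.25, -0.25 and -0.11; the phosphatase median was -0.57 with a floor of 5 CPM, -0.35 with no floor and -0.10 without chromosome 8. The median of kinases that MAP kinases activate was -0.062 with the trimmed mean. The 10 highest members of the wild-type library shared 9 with those per kilobase of the longest transcript and 7 with those not divided by length. Depth limited Mapk10 and Map3k8 most, with intervals of the ratio from 3.52 to 15.1 and from 1.48 to 3.27.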
